A study of Mus musculus with 4 samples.

Results

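The insulin-like growth factor (IGF) axis was followed through 10 genes, chosen by name with earlier results of these data known. They were the ligands Igf1 and Igf2, the receptor Igf1r, the receptor substrate Irs1, and the binding proteins Igfbp2, Igfbp3, Igfbp4, Igfbp5, Igfbp6 and Igfbp7. All 10 were found among the 19938 genes that the array annotation names by a single symbol, and all 10 passed the filter on low values. Each gene is represented by its probe set of highest mean signal. The samples were 2 mouse cell lines, 365 and 167, from soft tissue tumours that lost Smarcb1 in p53-/- mice heterozygous for Smarcb1 on a C57BL6/SV129J background. Each line was infected with the retroviral vector pMIG carrying Smarcb1 or with pMIG alone, so the empty-vector cells were Smarcb1-deficient and p53-null, and the Smarcb1-infected cells were p53-null too. RNA was taken 3 days after infection, a time chosen by the submitters to favour genes that Smarcb1 regulates directly, and each combination of line and vector was hybridised once, on 4 arrays in all. Smarcb1 encodes a subunit shared by the SWI/SNF complexes, which slide or evict nucleosomes, and its loss is the hallmark of malignant rhabdoid tumours. The labels name no batch and no repeat cultures, so the only replication of a vector is that of the 2 lines. The p-values for a vector rest on how differently the 2 lines respond, pooled with that spread in the other tested genes.

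IGF1 and IGF2 bind the receptor tyrosine kinase IGF1R, which phosphorylates substrates such as IRS1 and through them activates phosphoinositide 3-kinase, AKT and the growth and survival programmes downstream. In body fluids and matrix most IGF is held by binding proteins, which prolong its life and can block or promote its access to the receptor. IGFBP7 shares the N-terminal domain of this family but binds IGF with low affinity, binds insulin, is deposited in the matrix and around vessels, and has been described as a secreted growth inhibitor in several tumour types. In mouse embryos Igf2 is an imprinted growth factor expressed from the paternal allele.

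The promoters of 4 members are shown because their genes had the 4 largest mean differences with Smarcb1: Igfbp7, Irs1 and Igfbp4, which differed in both lines, and Igf1, which differed in line 167. Each is the 250 bases before the annotated start, read on the strand of the gene, from RefSeq (GRCm38.p6). Capitals mark matches, on either strand, to 4 short motifs that do not overlap here: an AP-1 motif (TGANTCA), a TEAD motif (GGAATG), a GC box (GGGCGG) and a TATA box (TATAAA).
Igfbp7, chr5:77408046-77408295, minus strand: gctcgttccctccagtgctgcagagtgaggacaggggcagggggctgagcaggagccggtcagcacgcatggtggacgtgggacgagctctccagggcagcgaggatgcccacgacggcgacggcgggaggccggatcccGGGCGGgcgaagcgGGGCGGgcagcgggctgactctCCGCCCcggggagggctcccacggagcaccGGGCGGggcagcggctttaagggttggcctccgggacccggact
Irs1, chr1:82291440-82291689, minus strand: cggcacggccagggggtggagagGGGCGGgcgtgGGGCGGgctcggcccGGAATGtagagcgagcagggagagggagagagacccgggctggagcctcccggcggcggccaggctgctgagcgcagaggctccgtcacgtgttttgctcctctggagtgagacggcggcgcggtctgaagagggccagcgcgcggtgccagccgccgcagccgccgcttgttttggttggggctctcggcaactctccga
Igfbp4, chr11:99040994-99041243, plus strand: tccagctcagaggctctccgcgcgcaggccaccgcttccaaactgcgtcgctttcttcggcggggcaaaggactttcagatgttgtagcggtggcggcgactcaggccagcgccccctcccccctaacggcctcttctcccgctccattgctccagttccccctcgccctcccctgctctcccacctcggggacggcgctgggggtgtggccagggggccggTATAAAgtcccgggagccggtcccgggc
Igf1, chr10:87860861-87861110, plus strand: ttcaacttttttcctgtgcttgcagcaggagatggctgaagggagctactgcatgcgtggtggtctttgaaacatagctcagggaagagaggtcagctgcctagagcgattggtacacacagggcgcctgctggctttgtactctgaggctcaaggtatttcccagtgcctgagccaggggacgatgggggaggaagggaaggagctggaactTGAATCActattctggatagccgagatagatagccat
The Igfbp7 window held 4 GC boxes, beginning 110, 96, 74 and 44 bases before the start, and 26 CpG dinucleotides. The Irs1 window held GC boxes at 227 and 216 bases, a TEAD motif at 201 bases, and 28 CpG dinucleotides. In the Igfbp4 window a TATA box began 28 bases before the start, and CpG dinucleotides numbered 22. The Igf1 window held 5 CpG dinucleotides. Its 1 match to the AP-1 motif, whose N stands for any base, had A in that place and began 37 bases before the start. Over 32851 promoter windows of this length the median was 6 CpG dinucleotides, and the motifs occurred in 6.75% (AP-1), 12.6% (TEAD), 32.7% (GC box) and 12.4% (TATA box) of them. None of the 4 motifs was present in all 4 windows. A match describes the letters only.

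Smarcb1 signal was log2 9.61 with Smarcb1, against 6.01 with empty vector, in line 365, and log2 7.83 with Smarcb1, against 4.61 with empty vector, in line 167. It rose 10.6-fold on average (limma adjusted p = 0.0371). Vim, an intermediate filament of mesenchymal cells, lay between log2 13.27 and 13.53 on all 4 arrays. The leukocyte gene Ptprc (log2 3.66 to 4.06) and the epithelial gene Epcam (log2 3.79 to 4.09) lay below the filter level of log2 4.27 throughout. So did, with these included, 4 of 6 markers in the macrophage and leukocyte list and 2 of 6 in the epithelial list. Others of these lists did not: Cd68, a lysosomal protein abundant in macrophages, had log2 8.18 with Smarcb1, against 9.95 with empty vector, in line 365, and log2 8.69 with Smarcb1, against 9.32 with empty vector, in line 167. The keratin genes Krt8 (log2 5.63 to 6.04) and Krt18 (log2 5.25 to 5.64) also lay above that level on every array. Fewer cells of a type and less RNA per cell cannot be told apart in such bulk RNA.

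Signals are log2 values, so a difference of 1 is a 2-fold change; they are compared within a gene, since probe sets differ in brightness for the same amount of RNA. With Smarcb1, 5 of the 10 genes had higher signal in both lines, Igf2 had lower signal in both, and 4 differed in opposite directions. Over all tested genes these shares were 26% higher in both, 34.1% lower in both and 39.8% opposite, the last close to the 4 of 10. Igfbp7 and Irs1 were at least 2-fold higher in both lines, 2 of 10 members, where 1.33% of the 13956 tested genes were. In line 365 the members at least 2-fold higher were Igfbp7 and Irs1, 2 of 10, where 2.84% of tested genes were. Line 167 had 5 of 10 (Igfbp7, Igf1, Igfbp3, Igfbp4 and Irs1), where 3.4% of tested genes were. The median change over the members was 0.0271 in line 365 and 0.821 in line 167, beside -0.0059 and -0.0553 over all tested genes. With 1 array for each line and vector, these single-line differences have no test. The members were chosen with earlier results of these data known, so their shares describe the chosen genes and are no test of the axis.

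**Figure D1:**
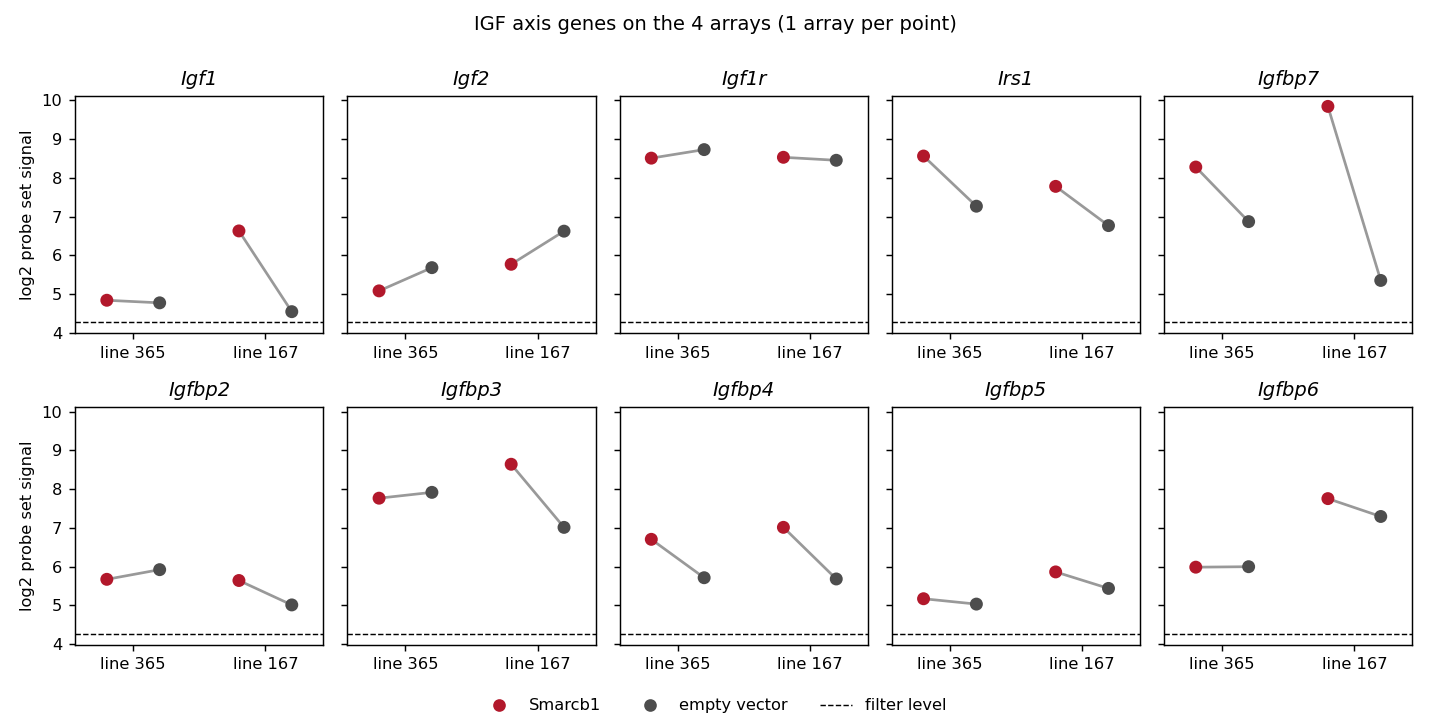
Log2 probe set signal of the 10 genes on the 4 arrays. Each panel is 1 gene, each point 1 array (red, Smarcb1; grey, empty vector), a line joins the arrays of a cell line, and the dashed line is the filter level of log2 4.27. Igfbp7 is highest on the Smarcb1 array of line 167 (9.85) and lowest on the empty-vector array of that line (5.35), and Igfbp6 is separated by line.

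The test over both lines used limma with a term for the cell line, adjusted by the Benjamini-Hochberg method over all tested genes, with a threshold of 0.05. It called 0 of the 10 members, while 9 of all tested genes passed, or 0.0645%, all 9 higher with Smarcb1. The introduced gene Smarcb1 was itself among these 9. At an unadjusted p under 0.05 stood 4 members, Irs1, Igfbp4, Igfbp7 and Igf2, and 1613 of all tested genes (11.6%). The values below are therefore differences that did not pass this test. With 2 arrays per vector, the groups of a gene can separate easily. The share of all tested genes without overlap was not counted, so a lack of overlap below is a description only.

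Among the ligands, Igf1, the growth factor induced by growth hormone, had a signal of log2 4.84 with Smarcb1, against 4.78 with empty vector, in line 365. In line 167 its signal was log2 6.63 with Smarcb1, against 4.55 with empty vector. The groups did not overlap, but the Smarcb1 array of line 167 stood alone, and the other arrays lay just above the filter level, where the size of a difference is uncertain. The difference was 0.07 on the log2 scale in line 365 and 2.08 (4.24-fold) in line 167, the 133rd highest of 13956. Its mean change was 1.07 ± 1.43 (SD, n = 2 lines; limma adjusted p = 0.495).

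Igf2, the embryonic ligand, was the 1 member with lower signal in both Smarcb1-infected lines. Its signal was log2 5.09 with Smarcb1, against 5.69 with empty vector, in line 365. In line 167 it was log2 5.77 with Smarcb1, against 6.63 with empty vector. Within each line the Smarcb1 array was the lower, but across lines the groups overlapped, because the Smarcb1 array of line 167 exceeded the empty-vector array of line 365. The signal was 1.52 times lower in line 365 and 1.81 times lower in line 167, with a mean change of -0.73 ± 0.18 (SD, n = 2 lines; limma adjusted p = 0.291).

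The receptor gene Igf1r differed little between arrays. Its signal was log2 8.51 with Smarcb1, against 8.73 with empty vector, in line 365, and log2 8.53 with Smarcb1, against 8.45 with empty vector, in line 167. The differences, -0.22 in line 365 and 0.08 in line 167, pointed in opposite directions and gave a mean change of -0.07 ± 0.21 (SD, n = 2 lines; limma adjusted p = 0.896).

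Irs1 encodes the docking protein that couples the IGF1 and insulin receptors to phosphoinositide 3-kinase. In line 365 its signal was log2 8.56 with Smarcb1, against 7.27 with empty vector. In line 167 it was log2 7.78 with Smarcb1, against 6.77 with empty vector. Both Smarcb1 arrays exceeded both empty-vector arrays. The differences were 2.45-fold in line 365 and 2.02-fold in line 167, with a mean change of 1.15 ± 0.20 (SD, n = 2 lines), and the adjusted p of 0.138 from limma was the lowest among the members. A second Irs1 probe set stayed below the filter level on all arrays (log2 3.38 to 3.83) and was higher with Smarcb1 by 0.25 in line 365 and 0.45 in line 167. Averaging both probe sets lowered the differences to 0.77 and 0.73, under 2-fold.

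Igfbp7 showed the widest range of the members. Its signal was log2 8.28 with Smarcb1, against 6.87 with empty vector, in line 365, and log2 9.85 with Smarcb1, against 5.35 with empty vector, in line 167. Both Smarcb1 arrays exceeded both empty-vector arrays, and both the highest and the lowest array belonged to line 167. The difference was 2.65-fold in line 365, the 195th highest of all tested genes, and 22.5-fold in line 167, the 13th highest. The mean change was 2.95 ± 2.18 (SD, n = 2 lines; 7.72-fold; limma adjusted p = 0.278, moderated SE 0.73). Both lines responded in the same direction but to different extents, with a response in line 365 minus that in line 167 of -3.08.

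Igfbp4, a binding protein that holds IGF away from the receptor until a protease, PAPP-A, cleaves it, was alike in both lines. Its signal was log2 6.71 with Smarcb1, against 5.71 with empty vector, in line 365, and log2 7.01 with Smarcb1, against 5.68 with empty vector, in line 167. Again the Smarcb1 arrays lay above the empty-vector arrays without overlap. The differences were 1.99-fold in line 365 and 2.52-fold in line 167, and the mean change was 1.16 ± 0.24 (SD, n = 2 lines; 2.24-fold; limma adjusted p = 0.166). Line 365 thus fell just short of the 2-fold limit used for the counts.

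Igfbp3, the main IGF carrier of the circulation, differed with Smarcb1 mainly in line 167. Its signal was log2 7.77 with Smarcb1, against 7.92 with empty vector, in line 365. In line 167 it was log2 8.64 with Smarcb1, against 7.01 with empty vector, a 3.09-fold difference. The line 365 arrays lay between the line 167 arrays, and the mean change was 0.74 ± 1.26 (SD, n = 2 lines; limma adjusted p = 0.579).

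Igfbp2, Igfbp5 and Igfbp6 differed by less than 2-fold with Smarcb1 in each line. Igfbp2, a binding protein abundant in embryonic tissue, had log2 5.67 with Smarcb1, against 5.92 with empty vector, in line 365, and log2 5.64 with Smarcb1, against 5.01 with empty vector, in line 167. Igfbp5, a matrix-bound member of the family, had log2 5.17 with Smarcb1, against 5.03 with empty vector, in line 365, and log2 5.86 with Smarcb1, against 5.44 with empty vector, in line 167. Igfbp6, which prefers IGF2 to IGF1, had log2 5.99 with Smarcb1, against 6.0 with empty vector, in line 365, and log2 7.76 with Smarcb1, against 7.29 with empty vector, in line 167. The vector groups overlapped for all 3 genes. Mean changes were 0.19 for Igfbp2, 0.28 for Igfbp5 and 0.22 for Igfbp6, with limma adjusted p of 0.819, 0.603 and 0.729.

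**Figure D2:**
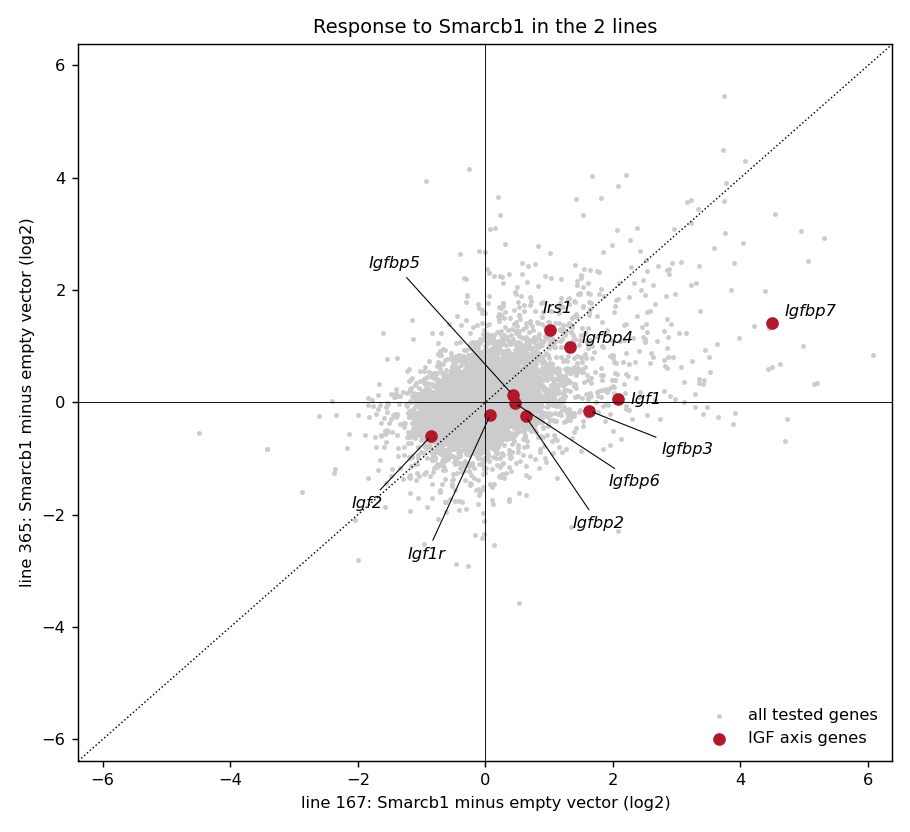
Smarcb1 minus empty vector (log2) in line 365 on the vertical axis and in line 167 on the horizontal axis. Grey points are the 13956 tested genes, red points the 10 IGF axis genes, and the dotted line marks equal differences. Igfbp7 lies far to the right (1.41 in line 365, 4.49 in line 167), Irs1 and Igfbp4 near the dotted line, and Igf1 and Igfbp3 to the right at about 0 in line 365.

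Line 365 was then set against line 167, with the 2 arrays of a line, 1 per vector, standing as its replicates. The p-values of that comparison therefore describe these 2 lines only. The line term of the same limma fit called 1 of the 10 members, Igfbp6, a share like that of all tested genes, of which 1528 (10.9%) passed, 741 of them higher and 787 lower in line 365. Igfbp6 averaged log2 5.99 in line 365, against 7.53 in line 167, and was 2.89-fold lower in line 365 (difference -1.53, moderated SE 0.21, limma adjusted p = 0.0226). It was lower in line 365 under both vectors, 3.41-fold on the Smarcb1 arrays and 2.46-fold on the empty-vector arrays. Igf2 averaged log2 5.39 in line 365, against 6.20 in line 167, a difference of -0.81 that did not pass (limma adjusted p = 0.0631). Irs1 averaged log2 7.92 in line 365, against 7.28 in line 167 (difference 0.64, limma adjusted p = 0.093).

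Taken vector by vector, without a test, the lines lay at least 2-fold apart on the Smarcb1 arrays for 3 of 10 members, Igf1, Igfbp6 and Igfbp7, where 9.51% of tested genes did. On the empty-vector arrays this held for 2 of 10, Igfbp6 and Igfbp7, where 12.9% of tested genes did. Igfbp7 was 2.96-fold lower in line 365 than in line 167 on the Smarcb1 arrays and 2.86-fold higher in line 365 on the empty-vector arrays. The order of the lines was thus reversed between the vectors, and the average line difference was -0.02 (limma adjusted p = 0.988). Igfbp3 had the same reversal at a smaller size, -0.88 on the Smarcb1 arrays and 0.90 on the empty-vector arrays. Igf1 was 3.46-fold lower in line 365 on the Smarcb1 arrays and differed by 0.23 on the empty-vector arrays.

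**Figure D3:**
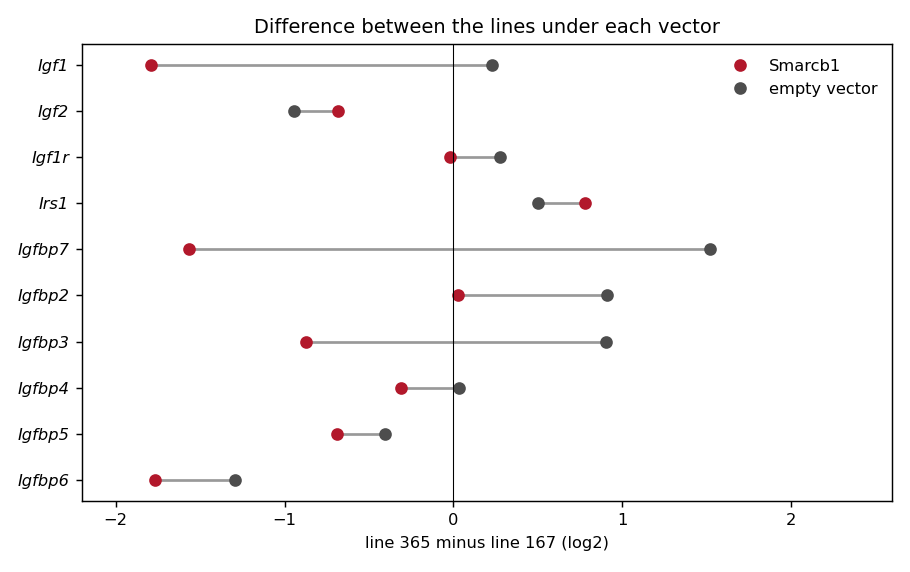
Line 365 minus line 167 (log2) for each of the 10 genes, on the Smarcb1 arrays (red) and the empty-vector arrays (grey), each point the difference of 2 arrays. Igfbp6 and Igf2 lie left of 0 under both vectors, whereas the points of Igfbp7 and Igfbp3 lie on opposite sides of 0.

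Some marker levels moved with these line 167 values. Of 6 fibroblast and mesenchymal markers, all tested, 0 were at least 2-fold higher with Smarcb1 in line 365 and 3 in line 167, where 2.84% and 3.4% of all tested genes were. Their median changes were 0.02 in line 365 and 1.13 in line 167. In line 167 Vim, Pdgfrb, Pdgfra, Thy1 and Col1a2 differed by -0.22, 0.42, 0.97, 1.30 and 1.74. Col1a1, a fibrillar collagen chain, had log2 6.41 with Smarcb1, against 6.38 with empty vector, in line 365, and log2 10.56 with Smarcb1, against 7.91 with empty vector, in line 167. The summed level of this list was log2 13.44 with Smarcb1, against 13.36 with empty vector, in line 365, and log2 13.72 with Smarcb1, against 13.67 with empty vector, in line 167. Vim, the brightest probe set, makes up most of this sum, which therefore does not show how the other markers moved. Of the smooth muscle and pericyte list 5 of 6 were tested, 0 of them at least 2-fold higher with Smarcb1 in line 365 and 1 in line 167, with median changes of 0.09 in line 365 and 0.53 in line 167. That 1 was Acta2, smooth muscle actin, which had log2 5.14 with Smarcb1, against 5.83 with empty vector, in line 365, and log2 10.81 with Smarcb1, against 6.11 with empty vector, in line 167. The other 4 tested, Myh11, Cnn1, Cspg4 and Notch3, differed by -0.14, 0.10, 0.53 and 0.64 in line 167. The summed level of the list, log2 7.57 with Smarcb1, against 7.65 with empty vector, in line 365, and log2 11.06 with Smarcb1, against 8.48 with empty vector, in line 167, follows Acta2 and is no measure of the list as a whole. None of the 6 fibroblast markers lay below the filter level on any array, and 1 of 6 in the smooth muscle and pericyte list, Rgs5, did so on every array. Cdh5, an endothelial cadherin, separated the lines, at log2 8.29 and 9.06 in line 365, against 3.64 and 3.78 in line 167, while the other 5 endothelial markers stayed at or below log2 4.80. Markers of other lists also passed the limma line test, as 10.9% of all tested genes did. Pdgfrb (difference -4.08, limma adjusted p = 0.00348), Cnn1 (-2.62, 0.00501) and Col1a2 (-2.14, 0.0491) were lower in line 365. Chrna1, from a skeletal muscle list, was higher in line 365 (3.44, limma adjusted p = 0.00771). The part of these markers in the values of the IGF axis was not tested.

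The wider pathway was described through 5 lists with 57 entries, of which 51 were measured and 46 tested. These lists too were chosen with earlier results of these data known, so their shares are a description only. With Smarcb1, 0 of the 46 passed the limma test, and 7 stood at an unadjusted p under 0.05, where 11.6% of all tested genes did. Signal was higher in both lines for 19, lower in both for 7, and opposite for 20, where all tested genes gave 26%, 34.1% and 39.8%. Ghr and Ccn3 exceeded a 2-fold higher signal in each line, where 186 of the 13956 tested genes (1.33%) were at least 2-fold higher in both. Irs4 was at least 2-fold lower in each, where 26 of the 13956 were. Its Smarcb1 signals (log2 4.85 and 4.98) lay near the filter level of log2 4.27, where the size of a difference is uncertain. The median change over the 46 was 0.06 in line 365 and 0.24 in line 167.

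Of the ligand, carrier and protease list, 10 genes were measured and 7 tested. Stc1, stanniocalcin, an inhibitor of the IGFBP-cleaving protease PAPP-A, had log2 6.21 with Smarcb1, against 4.78 with empty vector, in line 365, and log2 5.6 with Smarcb1, against 5.13 with empty vector, in line 167 (limma adjusted p = 0.324). Pappa, that protease, was higher with Smarcb1 by 0.06 in line 365 and 0.44 in line 167. Igfals, the acid-labile subunit of the circulating IGF complex, was higher by 0.18 in line 365 and 0.26 in line 167. Ins2, an insulin gene of the mouse, differed by -0.23 in line 365 and -0.02 in line 167. The adjusted p from limma was at least 0.60 for these last 3 genes.

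In the receptor list 7 genes were measured and 5 tested. Ghr, the growth hormone receptor, which drives Igf1 transcription in liver, had log2 8.87 with Smarcb1, against 7.33 with empty vector, in line 365. In line 167 it had log2 8.73 with Smarcb1, against 7.33 with empty vector. Its levels were nearly the same in both lines under each vector, and the differences were 2.92-fold in line 365 and 2.63-fold in line 167 (mean change 1.47 ± 0.11, SD, n = 2 lines; limma adjusted p = 0.0865). Lrp1, a large endocytic receptor, was 2.6-fold higher with Smarcb1 in line 365 and differed by 0.03 in line 167 (limma adjusted p = 0.526). Tmem219, described as a receptor for IGFBP3, was lower by 0.32 in line 365 and 0.35 in line 167 (limma adjusted p = 0.546).

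All 20 measured genes of the adaptor and downstream kinase list were tested, with median changes of 0.05 in line 365 and 0.07 in line 167. Irs4, an insulin receptor substrate like Irs1, had log2 4.85 with Smarcb1, against 5.98 with empty vector, in line 365, and log2 4.98 with Smarcb1, against 6.15 with empty vector, in line 167. It was 2.2 times lower with Smarcb1 in line 365 and 2.25 times lower in line 167 (limma adjusted p = 0.125), where Irs1 was higher. Pik3r1, the main regulatory subunit of phosphoinositide 3-kinase, was 1.65-fold higher in line 365 and 2.86-fold higher in line 167 (limma adjusted p = 0.223). Grb14 and Grb10 encode related adaptors that bind the insulin and IGF1 receptors and inhibit their signalling. Grb14 differed by -0.01 in line 365 and -1.01 in line 167 (limma adjusted p = 0.569), and Grb10 by 0.11 in line 365 and 0.75 in line 167 (limma adjusted p = 0.543).

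The list of IGF2 mRNA-binding proteins and the Igf2 locus had 2 tested genes. Igf2bp3, which binds IGF2 mRNA, was higher with Smarcb1 by 0.20 in line 365 and 0.42 in line 167 (limma adjusted p = 0.543).

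The relatives that share the IGFBP-type N-terminal domain, including the CCN family of matrix proteins, were all measured and tested. Of these 12 genes, 1 was at least 2-fold higher with Smarcb1 in line 365 and 7 in line 167, where 2.84% and 3.4% of all tested genes were, with median changes of -0.0026 in line 365 and 1.11 in line 167. Because the list was chosen with earlier results of these data known, these counts are no test of the family. Ccn3, a growth-restraining CCN protein, had log2 7.15 with Smarcb1, against 5.25 with empty vector, in line 365, and log2 8.80 with Smarcb1, against 6.30 with empty vector, in line 167. Its differences were 3.74-fold in line 365 and 5.68-fold in line 167, with a mean change of 2.2 ± 0.42 (SD, n = 2 lines; limma adjusted p = 0.0821). Ccn4, another member of that family, was 1.34-fold higher in line 365 and 10.2-fold in line 167 (limma adjusted p = 0.419). Ccn2, connective tissue growth factor, was 1.05-fold higher in line 365 and 7.88-fold in line 167 (limma adjusted p = 0.490). Htra3, a secreted serine protease, was higher by 0.30 in line 365 and 1.12 in line 167 (limma adjusted p = 0.404).

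**Figure D4:**
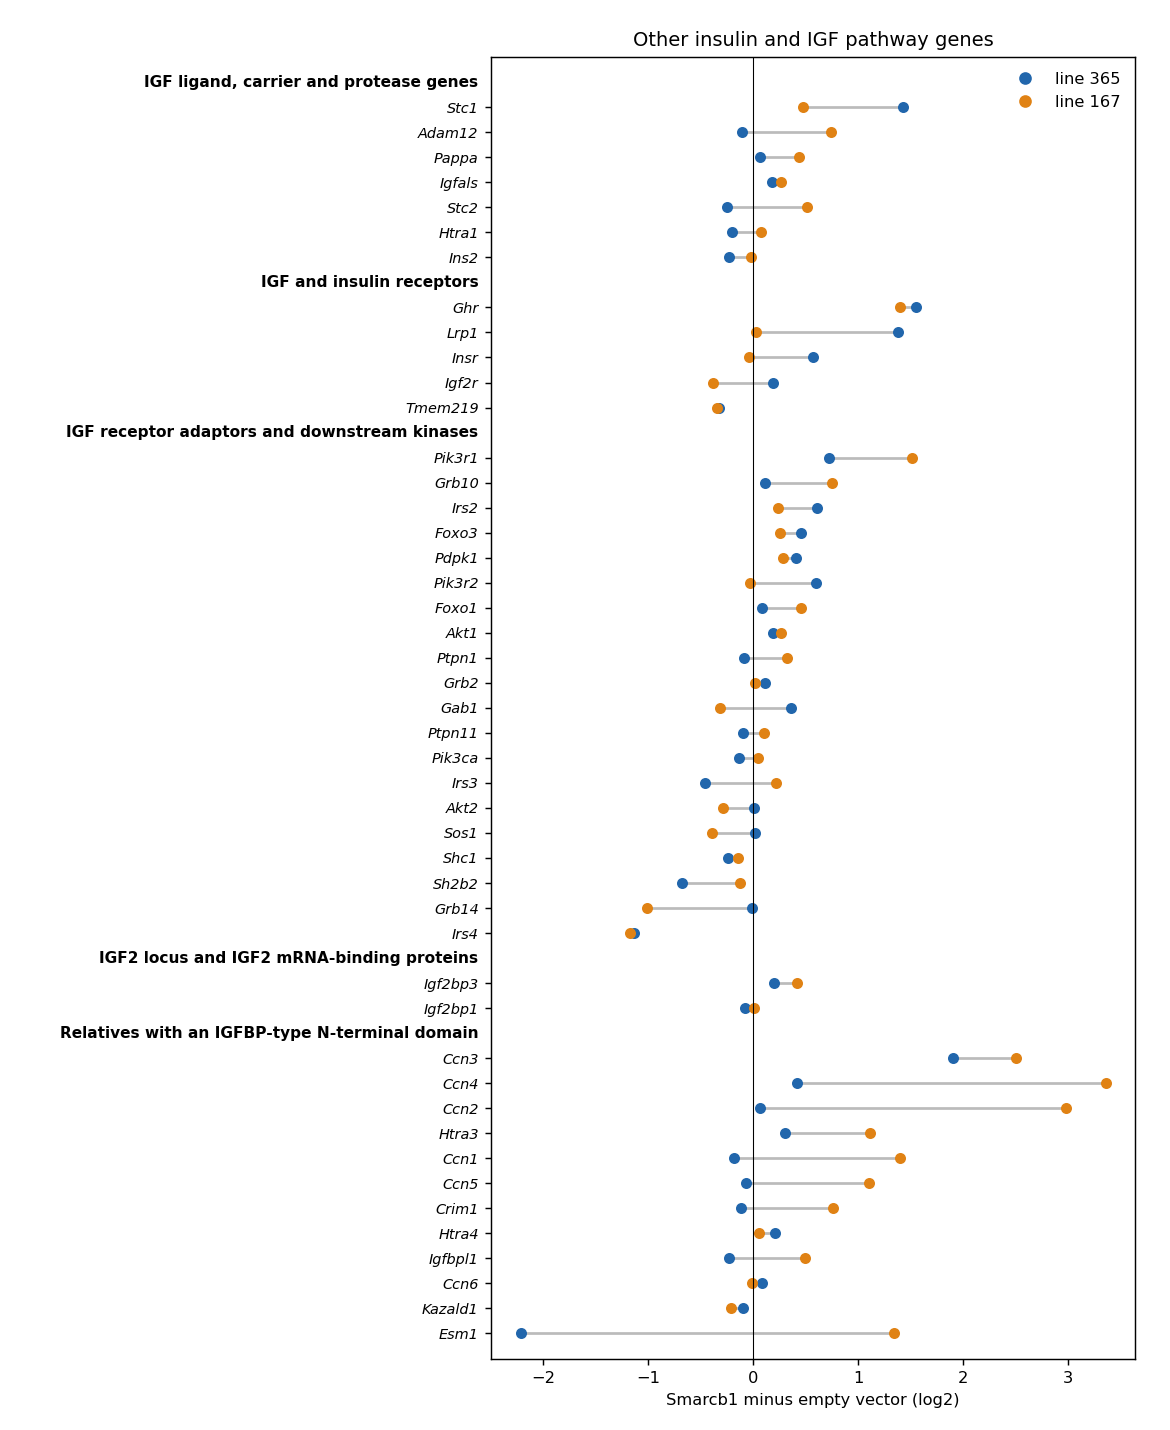
Smarcb1 minus empty vector (log2) for the 46 tested genes of the 5 pathway lists, in line 365 (blue) and line 167 (orange), sorted by mean change within a list. Ghr, Irs4 and Ccn3 lie on the same side in both lines, and 7 of the 12 relatives with an IGFBP-type domain lie at or beyond 1 in line 167.

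Between the lines, 10 of the 46 pathway genes passed the limma test, 2 higher and 8 lower in line 365, where 10.9% of all tested genes passed. An unadjusted p under 0.05 was reached by 15 of the 46, close to the share of all tested genes, 30.8%. Grb10 had log2 4.39 and 4.28 in line 365, near the filter level, against 10.63 and 9.89 in line 167 (difference -5.93, limma adjusted p = 0.00231). Grb14 was lower in line 365 as well (difference -1.80, limma adjusted p = 0.0309), and so was Igf2r, the clearance receptor for IGF2 (-0.96, limma adjusted p = 0.0416). Kazald1, an IGFBP-related secreted protein, was lower in line 365 by 3.48 on the log2 scale (limma adjusted p = 0.00348), and Ccn3 by 1.35 (limma adjusted p = 0.0341). Adam12, a metalloprotease that cleaves IGFBPs, Gab1, an adaptor, and Foxo3, a transcription factor restrained by AKT, were the other 3 that were lower in line 365. The 2 genes higher in line 365 were Crim1, a transmembrane protein with an IGFBP-like motif (difference 3.83, limma adjusted p = 0.00429), and Igf2bp1 (difference 1.74, limma adjusted p = 0.0123).

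Genes with the profile nearest to that of Igfbp7 were found over the 4 arrays by the root mean square difference between log2 values, each gene centred on its own mean. Genes with only a predicted or clone-based name and olfactory or vomeronasal receptors were passed over. The nearest of the remaining tested genes was Has2, a hyaluronan synthase, at a difference of 0.292. Its signal was log2 6.63 with Smarcb1, against 4.64 with empty vector, in line 365, and log2 8.26 with Smarcb1, against 3.88 with empty vector, in line 167. The value of 3.88 lay below the filter level of log2 4.27, where the size of a difference is uncertain. Ptprk, a receptor tyrosine phosphatase, followed at 0.439, Pcolce, an enhancer of procollagen processing, at 0.535, Aebp1, a secreted collagen-binding protein, at 0.560, and Map3k5, a stress-activated kinase, at 0.573. All 5 had the highest signal on the Smarcb1 array of line 167 and the lowest on the empty-vector array of that line. On that empty-vector array Map3k5 (log2 4.30) also lay near the filter level. None of the 5 passed the limma test for Smarcb1 against empty vector, with adjusted p between 0.177 and 0.349. With 4 arrays, likeness of profile is a description only.

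**Figure D5:**
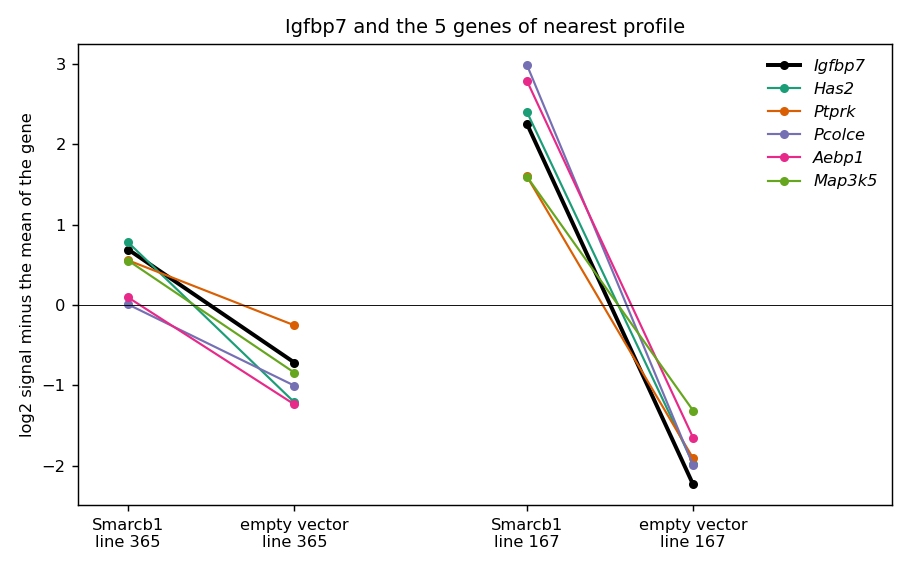
Log2 signal minus the mean of the gene on the 4 arrays, for Igfbp7 (black) and the 5 genes of nearest profile named in the text (colours), 1 array per point. All 6 genes are highest on the Smarcb1 array of line 167 and lowest on the empty-vector array of line 167.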

How the data were processed

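Total RNA of 4 samples was hybridised to whole-transcript arrays. Each deposited value is the log2 signal of a probe set; the submitters' processing notes name RMA and Affymetrix Expression Console as the authors' tools. Neither versions nor a genome build is given in the sources used here. RMA gives all arrays nearly the same distribution (medians log2 5.03 to 5.07), so a change of total RNA per cell cannot be seen in it. Of 35556 probe sets, the platform annotation gives 1 gene symbol for 21789, several for 1621 and lists none for 12146. Entrez identifiers of 21698 were in the RefSeq gene table, and 0 symbols needed an update. The probe set of highest mean stood for each of 19938 genes. A filter at the 30th percentile of the gene means (log2 4.27) kept 13956 genes.

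In R 4.3.3, limma 3.58.1 (lmFit and eBayes, intensity trend on) fitted terms for vector and cell line, with two-sided p-values and Benjamini-Hochberg adjustment at 0.05. The labels pair the arrays by cell line, and arrays of a line deviated together from their vector means (correlation 0.770 across genes). The model leaves 1 residual degree of freedom, which is how far the lines respond differently, and to it eBayes added 3.75 prior degrees of freedom. Single-line differences therefore have no test. The script was tested on simulated data in which a changed gene had the same change in both lines. That run does not cover responses that differ between the lines. For arrays, their number limits the precision.

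All 10 members were named. From each pathway list up to 4 tested genes of largest mean change and the same sign in both lines were named, and the 5 genes nearest to Igfbp7. Line-separated pathway genes were named after their values were seen, as they passed that test. Members and lists were chosen with earlier results of these data known. Some entries of the lists are not reported here. Alternatives were other filters, quantile normalization again, cyclic loess, median centring, no trend, averaged probe sets, no cell line or vector term, a 1.5-fold limit and each line alone.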

Additional observations from a re-analysis of the deposited data

Results flagged for a closer look

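In 4 members the Smarcb1 and empty-vector arrays differed in opposite directions in the 2 lines, which drew attention to them. The response in line 365 minus that in line 167, on the log2 scale, was -1.78 for Igfbp3 (-0.15 in line 365 and 1.63 in line 167), -0.88 for Igfbp2 (-0.25 and 0.63), -0.47 for Igfbp6 (-0.01 and 0.46) and -0.30 for Igf1r (-0.22 and 0.08). These differences between the lines were not tested, since each line has 1 array per vector and the difference is the residual of the model. Over all tested genes, 5554 of 13956 (39.8%) differed in opposite directions.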

How the results depend on the processing

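Members past the test for Smarcb1 against empty vector numbered 0 under every setting tried, with lowest adjusted p of 0.066 for Irs1, 0.0889 for Igfbp4 and 0.155 for Igfbp7. The stricter filter, at the 50th percentile, did not test Igf1, Igfbp2 and Igfbp5. Over all genes the number past that test, 9, was 68 with no filter, 101 with the stricter filter, 71 with quantile normalization again, 28 with cyclic loess, 19 with averaged probe sets and 0 without the replicate block (the cell line term). Pathway genes past it, 0, were 1 with no filter (Ccn3, adjusted p = 0.042), 2 with the stricter filter (Ccn3, 0.0271, and Ghr, 0.0318) and 2 with quantile normalization again (Ccn3, 0.0484, and Ghr, 0.0456). Between the lines, members past the test were 2 with the stricter filter, where Igf2 (-0.81) reached an adjusted p of 0.0495, and Igfbp6 stayed between 0.00946 and 0.0398. Without the vector term, genes past the line test were 653 and pathway genes 5. Averaged probe sets left 1 member at least 2-fold higher in both lines and 1 in line 365, since Irs1 became 0.77 in line 365 and 0.73 in line 167. At 1.5-fold, 7 members on the Smarcb1 arrays and 5 on the empty-vector arrays lay apart between the lines, where 22.8% and 28.7% of all tested genes did. Of 314 member values under alternatives, 5 changed sign. With 1 line alone these were Igfbp2 (-0.25), Igfbp3 (-0.15, against 0.74 over both lines), Igfbp6 (-0.01) and Igf1r (0.08), the members already opposite in the 2 lines. With median centring it was the Igfbp2 line difference on the Smarcb1 arrays (-0.0029). Many of the 314 could not change sign. Filters, the trend and dropped terms leave a log2 difference as it is, and averaging alters only genes with several probe sets. Apart from what a setting's own construction changes (genes tested, terms fitted, probe sets averaged), the cause was not tested. Igf1 and Igfbp5 signals lay near the filter level, which limits the size of their differences. The lowest values of Igfbp2 (log2 5.01) and Igf2 (log2 5.09) lay about as near it as the lowest of Igfbp5 (log2 5.03), so the same limit holds there.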

Other observations

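Some pathway values fell outside the naming rule and were picked after they were seen. Esm1, an endothelial proteoglycan with an IGFBP-type domain, differed most in opposite directions: log2 5.80 with Smarcb1, against 8.02 with empty vector, in line 365, and log2 5.04 with Smarcb1, against 3.70 with empty vector, in line 167 (mean change -0.44, limma adjusted p = 0.872). Its value of 3.70 lay below the filter level of log2 4.27, so the size of the line 167 difference is uncertain. Ccn1, a matrix protein of the CCN family, was 1.14 times lower with Smarcb1 in line 365 and 2.63-fold higher in line 167 (limma adjusted p = 0.595). Insr, the insulin receptor, was 1.48-fold higher with Smarcb1 in line 365 and 1.03 times lower in line 167 (limma adjusted p = 0.669). Irs2, the insulin receptor substrate beside Irs1 and Irs4, was 1.52-fold higher in line 365 and 1.18-fold higher in line 167 (limma adjusted p = 0.518). None of the 4 passed the test.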
